A study of Arabidopsis thaliana with 12 samples.

Results

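MAC3A, a subunit of the MOS4-associated complex, was located on the genome of Arabidopsis thaliana seedlings by chromatin immunoprecipitation and sequencing. The regions described here have all their summits outside protein-coding gene bodies. Peaks of 6 MAC3A libraries sharing at least 1 bp were joined into regions. A region was kept when every summit of every library in it lay outside the bodies of all protein-coding genes and more than 1 kb from any tRNA gene. This left 670 of 2917 regions, or 23%. Of the others, 1870 had every summit in a protein-coding gene body and 259 had summits on both sides of a gene boundary. The remaining 118 had every summit outside gene bodies and a summit within 1 kb of a tRNA gene. The rule concerns summits, so the interval of a region called outside gene bodies can still reach into one. The region by AT4G09970, for example, is 688 bp wide in a gap of 229 bp between genes.

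The MOS4-associated complex is the plant relative of the Prp19 complex, which joins the spliceosome during its activation, and MAC3A carries a U-box of the kind found in ubiquitin ligases. Sequence between genes holds promoters, the ends of transcription units, and genes for RNAs that are never translated, among them the small nuclear RNAs of the spliceosome. In seedlings light sets the choice between elongation in the dark and leaf and chloroplast development, and the series title places MAC3A with cryptochromes and with HY5, a transcription factor of the light response.

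The groups were 3 MAC3A libraries titled dark and 3 titled blue, and 3 control samples per condition were not analysed here. All samples are labelled as Columbia-4 seedlings with the anti-FLAG M2 antibody. The growth notes describe lines that express MAC3A-GFP, a control line with GFP alone and 6 days of blue light for every sample, while the titles name dark and blue, so each library's condition rests on its title. The labels also conflict in that an anti-FLAG antibody is named for lines with a GFP tag. The titles call the controls input, where the notes describe a line with GFP alone. The promoter of the transgene is not given in the sources used here. Nothing in the labels says that replicates came from separate cultures, so p values measure only the spread between these libraries. Read totals were not used, and the lists themselves held 1285, 1225 and 1169 peaks for dark replicates 1 to 3 and 1505, 1820 and 1578 for blue replicates 1 to 3. The submitters' code on the list of dark replicate 3 bears the mark of replicate 2, and the sample record was followed.

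More regions outside gene bodies were found in the blue-light lists. Dark replicates 1 to 3 had a peak in 218, 227 and 199 of them, and blue replicates 1 to 3 in 297, 374 and 303. Every blue library thus had more than every dark library, with means of 325 ± 42.8 and 215 ± 14.3 (SD over 3 libraries) and a ratio of 1.51. The exact permutation test over the 6 libraries, two-sided, gave p = 0.10 (adjusted p = 0.12 over 6 measures), and 0.10 is the smallest p that 3 libraries against 3 can reach. The blue lists are longer as a whole, so the share of each library's regions is the closer measure. It was 17.2%, 18.8% and 17.2% for the dark replicates and lay between 19.5% and 20.8% for the blue ones. The blue libraries again lay above all dark ones, by 2.38 percentage points on average (two-sided exact permutation p = 0.10, adjusted p = 0.12). The deposited fold is the read pileup at a summit over the caller's local background, and −log10 q is its significance after adjustment within the list. With lists cut to equal length by −log10 q the excess fell to 7.67 regions per library and 0.636 points (exact permutation p = 0.40 for each). With −log10 q limited to 5 or more it was 24.3 regions (exact permutation p = 0.30) and 1.56 points (exact permutation p = 0.20). Among summits with a fold of at least 3 it turned to -44.0 regions (exact permutation p = 0.10) and -1.02 points (exact permutation p = 0.20). Median folds of these regions ran from 3.39 to 3.48 over dark and from 2.79 to 2.87 over blue libraries. The part of list length and depth in the excess was not tested further.

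**Figure D1:**
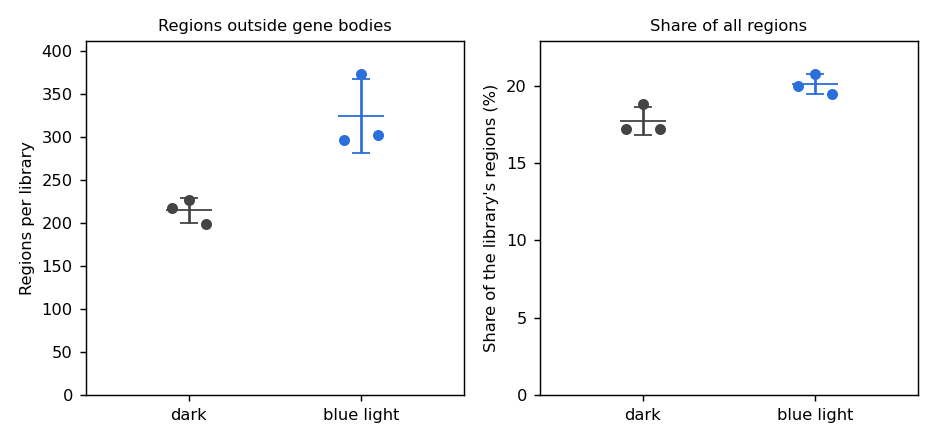
Number of regions outside protein-coding gene bodies with a peak in each library (left), and their share of all regions of that library in percent (right); points are libraries, bars the mean and SD of 3. The blue points, 297 to 374 regions and 19.5% to 20.8%, lie above the dark points, 199 to 227 regions and 17.2% to 18.8%.

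Most of these regions lay close to a gene. The best summit of a region was a median of 222 bp from the nearest protein-coding gene, with quartiles at 95.2 and 646 bp. Within 1 kb of a gene lay 555 regions, or 82.8%, although only 44.2% of the sequence eligible under the rule is that close. The gene table holds no strand, so the start of a gene was not told from its end. The density fell with distance, from 43.6 regions per Mb of eligible sequence in the first 100 bp to 36.0 in the next class, up to 250 bp, and 10.5 between 500 and 1000 bp. Beyond 5000 bp, where 23.7% of the eligible sequence lies, it was 0.778 per Mb. The gaps between protein-coding genes that held a region had a median length of 1657 bp, against 877 bp for all 23815 gaps. A longer gap offers more sequence to a summit, and no comparison weighted by length was made.

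**Figure D2:**
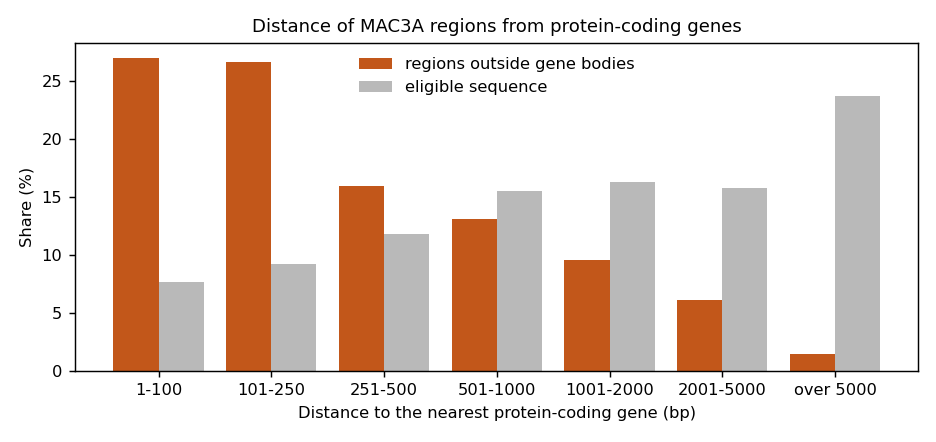
Share of the 670 regions (orange) and of the eligible sequence (grey) in percent, by distance in bp from the nearest protein-coding gene. The first 100 bp hold 27.0% of the regions and 7.67% of the sequence, and the last class holds 1.49% and 23.7%.

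Regions of the blue lists lay slightly nearer to genes. The median distance per library was 298, 271 and 277 bp for the dark replicates and 236, 234 and 248 bp for the blue ones. The groups did not overlap, and the blue mean was lower by 42.5 bp (two-sided exact permutation p = 0.10, adjusted p = 0.12). The difference was -30.7 bp with lists of equal length (exact permutation p = 0.20), -27.7 bp without dark replicate 1 and -18.8 bp for regions outside genes of every biotype (exact permutation p = 0.10 for both). The share of regions more than 1 kb from any protein-coding gene averaged 19.4 ± 1.30% for dark and 17.0 ± 0.833% for blue libraries (SD over 3; two-sided exact permutation p = 0.10, adjusted p = 0.12). With −log10 q limited to 5 or more the 2 differences were -122 bp and -5.95 points (exact permutation p = 0.10 for each), and with fold limited to 3 or more the latter was -0.614 points (exact permutation p = 0.50). Peak width did not separate the conditions, with library medians of 296 to 300 bp in the dark and 294 to 308 bp in blue light (two-sided exact permutation p = 0.50, adjusted p = 0.50). With lists cut to equal length the mean of the blue medians was 28.0 bp above that of the dark ones, and at a fold of at least 3 it was 58.0 bp above (exact permutation p = 0.10 for each). In every library these peaks were narrower than those of all other regions, whose medians were 372 to 392 bp, and had a lower median −log10 q, at 4.20 to 5.31 against 4.86 to 6.02. Median folds were close, at 2.79 to 3.48 against 2.88 to 3.49. No test is given for these, since a rule on every summit leaves out wide regions with many summits more easily.

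Genes without a protein product lay under 93 of the 670 best summits, or 13.9%. Such genes cover 21.8% of the eligible sequence, most of it annotated as pseudogenes, which cover 17.2% of it and held 9 regions, or 1.34%. Long noncoding RNA genes cover 1.62% of the eligible sequence and held 47 regions, or 7.01%. Genes of the class misc_RNA held 13 regions, ncRNA genes 9, transcribed pseudogenes 5 and miRNA genes 4, and no best summit lay in a snoRNA gene. The share of a library's regions in any such gene averaged 20.7 ± 1.72% for dark and 16.5 ± 2.28% for blue libraries (SD over 3; two-sided exact permutation p = 0.10, adjusted p = 0.12). The difference of -4.20 points turned to 0.175 with lists of equal length (exact permutation test, p = 1.00) and to 2.88 at a fold of at least 3 (exact permutation test, p = 0.30).

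Small nuclear RNA genes encode the RNA cores of the spliceosome, and 10 of the 82 annotated ones stood under the best summit of a region. Genes of this class cover 0.0177% of the eligible sequence, and 7 of these 10 regions had a peak in all 6 libraries. They were U1.5 (AT1G08115), U12 (AT1G61275), an RNA of the minor spliceosome, and the U2 genes U2.3 (AT3G57765), U2.4 (AT3G56825), U2.5 (AT5G09585), U2.10 (AT2G04375) and U2.14 (AT1G05057). Over U2.5 (chromosome 5, 2974913 to 2975475, TAIR10) the fold was 5.24, 6.18 and 6.45 in dark and 5.39, 4.03 and 5.00 in blue lists, which overlap. Over U1.5 (chromosome 1, 2537945 to 2538345) it was 5.04, 3.80 and 4.52 in dark and 3.85, 4.75 and 4.72 in blue lists. U12 (chromosome 1, 22603020 to 22603460) had 4.82, 3.24 and 4.83 in dark and 4.08, 4.86 and 3.51 in blue lists. U2.3 (chromosome 3, 21397268 to 21397666) ran from 4.05 to 5.39 in the dark and from 3.97 to 5.27 in blue light. These ranges overlapped for each of the 4 genes. Of the regions not in all 6 libraries, those over U5.5 and U2.7 had peaks in 2 dark and 3 blue libraries and that over U2.6 in 1 blue library. The U2 genes are near-identical copies, so reads may have been assigned to the wrong one of them.

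Other RNA genes carried shared regions with modest folds. The strongest lay in the overlapping genes AT5G00505 (misc_RNA) and AT5G04785 (lncRNA) on chromosome 5 from 10613956 to 10614756, with folds of 8.34, 10.9 and 9.37 in dark and 7.27, 7.51 and 7.49 in blue lists. Every dark fold there was above every blue one. The lncRNA AT2G07055, 197 bp from AT2G18220, had a median fold of 6.90 in the dark and 4.65 in blue light. The lncRNAs AT5G01475 and AT5G09170 had medians of 4.99 and 5.67 over dark and of 3.72 and 3.77 over blue libraries. GUT15 (AT2G18440), known for an unstable noncoding transcript, lay under a wide region of 1154 bp, with folds from 2.02 to 2.41 in the dark and 2.43 to 3.11 in blue light. Shared regions over the misc_RNA genes AT5G09935 and AT2G09600 had median folds of 4.73 and 3.31 over all libraries.

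None of the regions over miRNA genes was found in all libraries. MIR5651 had peaks in 2 dark and 1 blue libraries. MIR168a, whose product acts on the mRNA of the silencing protein AGO1, had them in 2 blue libraries (folds 2.83 and 3.01) and in no dark one. MIR8166, beside RTFL17, was covered in each blue library, with folds of 2.07 to 2.17, and in none of the dark, and MIR170 had one in 1 blue library. Among pseudogenes, AT3G28705 and AT2G05980 had peaks in all 6 libraries, with median folds of 5.83 and 3.15. The ncRNA gene AT4G36648, in the gap between AT4G36640 and PBRP, held 4 separate regions, of which the first was in 3 blue and no dark libraries (fold 1.99 to 2.17) and each of the others in a single library. No other gap held more than 3.

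Many regions came from few libraries. Of the 670, 301 (44.9%) had a peak in 1 library and 78 (11.6%) in all 6. Among all other regions the shares were 31.2% and 20.2%. A region with more peaks has more summits, and every summit had to lie outside gene bodies, so the rule itself works against recurrent regions. With 1 summit per region deciding, the best by −log10 q, 12.8% of 789 such regions and 20.3% of the rest were in all 6 libraries. At least 2 dark libraries had a peak in 179 regions and at least 2 blue libraries in 274. Both conditions held for 122 regions, a share of 68.2% of the former set and 44.5% of the latter, against 72.3% and 54.7% over all 2917 regions. The mean Jaccard index between libraries, counted in regions, was 0.459 ± 0.0170 (SD) over the 3 pairs of dark libraries, 0.441 ± 0.0126 over the 3 pairs of blue libraries and 0.304 ± 0.0154 over the 9 mixed pairs. For all other regions the 3 means were higher, at 0.589, 0.599 and 0.412, with a like gap between pairs of 1 condition and mixed pairs. The best summits of a shared region lay close together, with a median range of 70.0 bp over the 6 libraries and 50 of 78 regions within 100 bp.

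**Figure D3:**
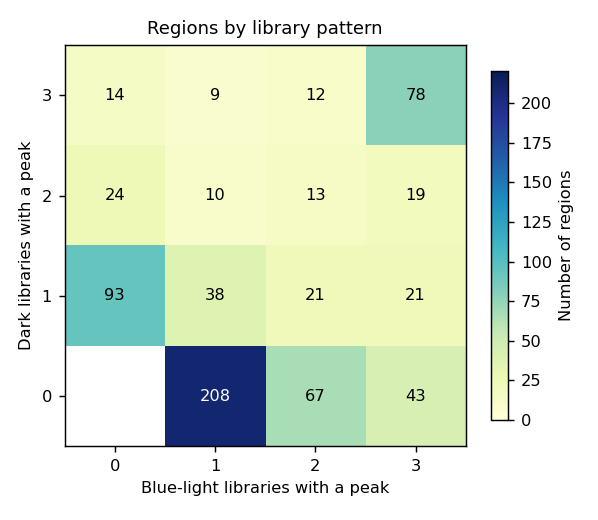
Number of the 670 regions by how many blue-light libraries (horizontal) and dark libraries (vertical) had a peak there; darker colour means more regions. Regions of 1 blue library alone (208) and of all 6 libraries (78) are the fullest and the third fullest cells, with 43 in 3 blue and no dark and 14 in 3 dark and no blue libraries.

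Among the 78 regions of all 6 libraries, the first by mean rank of −log10 q was a region on chromosome 5 from 15905623 to 15907038, between RPL5B, a ribosomal protein gene, and AGL81, a MADS-box gene 517 bp from the summit. Its folds were 17.6, 17.6 and 15.7 in dark and 12.1, 13.2 and 13.6 in blue lists. The next lay on chromosome 2 from 17674901 to 17676182, 140 bp from AT2G42450, with folds of 19.0, 17.5 and 16.9 in dark and 11.7, 12.3 and 12.1 in blue lists. The third lay on chromosome 5 from 23299812 to 23300876, 124 bp from XTH12, a gene of the xyloglucan-modifying enzymes of the cell wall. It had folds of 16.3, 15.3 and 16.0 in dark and 8.28, 11.4 and 11.4 in blue lists. In all 3 regions every dark fold was above every blue fold. Fold is the authors' caller's own value, and it moves with how deeply each library was read, so such a gap does not compare binding. Dark folds were also higher list-wide, with library medians over all other regions of 3.42 to 3.49 in dark and 2.88 to 2.95 in blue lists. How often all dark folds exceeded all blue ones over all shared regions was not counted, so the gap in these 3 is not set apart from other regions.

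The regions that followed had lower folds. Between ROL5, a gene of tRNA modification, and AT2G44280 (chromosome 2, 18300191 to 18301138) dark replicate 2 had a fold of 17.0 and dark replicate 3 one of 8.80, which fell among the blue folds of 8.71, 10.1 and 8.99. Between AT3G04200 and AT3G04210 (chromosome 3, 1104875 to 1105611) the dark folds were 12.5, 12.6 and 13.0, and the blue ones ran from 8.32 to 9.69. WAKL2, a wall-associated kinase-like gene, had a region 334 bp away (chromosome 1, 5528109 to 5529012) with 9.36 to 12.0 in dark and 6.52 to 7.75 in blue lists. The region over AT5G00505 described above was the seventh. Regions by AT4G09970, AT3G02420 and AGL44, a MADS-box gene of the nitrate response of roots, completed the 10, with median folds of 6.45, 5.95 and 5.92 and mean ranks of 124, 142 and 144. Some regions found in the dark alone ranked higher within their own lists, among them those by AT4G06598 (mean rank 64.3) and AT1G20290 (77.7) described below. In each library, 7 to 10 of the 100 peaks ranked highest by −log10 q belonged to regions outside gene bodies.

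**Figure D4:**
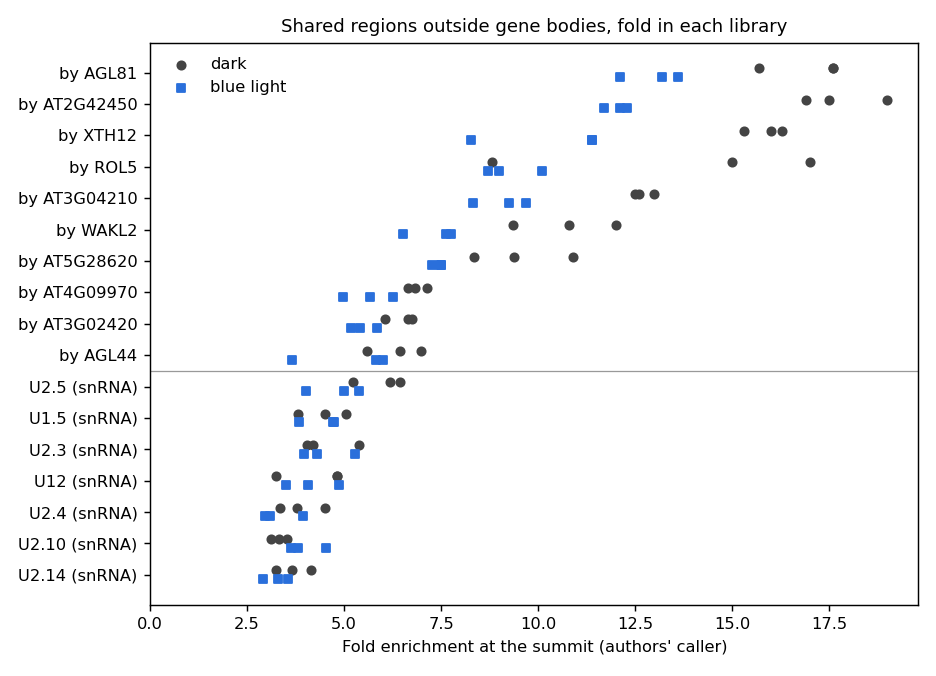
Fold enrichment at the summit in each of the 6 libraries for the 10 shared regions with the best mean rank (above the line, named by the nearest gene) and for the 7 shared regions over small nuclear RNA genes (below it); circles are dark and squares blue-light libraries. Above the line the dark folds mostly lie to the right of the blue ones, up to 19.0, and below it the conditions overlap for every gene but U2.10.

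Other shared regions are named here by their neighbouring genes, a choice made after the values were seen. A region between WAKL6 and WAKL1 (chromosome 1, 5522084 to 5522842) had a median fold of 5.41, beside the one at WAKL2. A region between the receptor kinase genes CRK12 and CRK13 had 4.31, and one between the receptor-like protein genes RLP24 and RLP25 had 3.91. XTH13, the neighbour family member of XTH12, had a region 78 bp away with folds of 6.01, 6.02 and 6.53 for the dark replicates and 2.94, 3.07 and 2.58 for the blue ones. WRKY47 and WRKY22, transcription factor genes of the defence-related WRKY family, had regions 640 and 1097 bp away with 5.32 and 5.03. The expansin gene EXPA17 had one at 140 bp with 4.73. The immune receptor gene SNC1, whose mutant gave the complex its name (modifier of snc1), had one at 1180 bp with 3.96.

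Where a region is present in every list, its place by fold among the same 533 shared regions can be set side by side, since all lists then have equal length. Places did not overlap between the conditions for 14 of the 78 regions outside gene bodies. Of these, 6 (7.69%) stood higher in every blue list, against 12.0% of all 533 regions, and 8 (10.3%) higher in every dark list, against 11.6%. Both shares lie near or under those of all shared regions and set the regions outside gene bodies apart in neither direction. With 1 library left out, when fewer libraries have to be kept apart, the counts were 9 to 12 and 11 to 15. With −log10 q limited to 5 or more they were 2 and 6. The shares over all shared regions were not counted at these settings, so these counts have no background to be read against. The region by XTH13 showed the widest gap among those 14, at places 146, 152 and 118 in dark and 435, 404 and 499 in blue lists. The nearby region of XTH12 was not among the 14. Other regions higher in every dark list lay by EXPA17, WRKY22, AT2G42450, AT3G04210, AT2G40110 and AT1G27270 and over the pseudogene AT3G28705. In the other direction U2.10 moved from places 473, 446 and 404 in the dark to 272, 272 and 179 in blue light, and GUT15 from 522, 532 and 521 to 505, 511 and 383. The region by OBP4, a DOF transcription factor gene, moved from 492, 478 and 489 to 399, 285 and 358. The other 3 lay by AT1G77790, AT2G19650 and AT5G62970. For the other 6 small nuclear RNA genes the places overlapped between conditions. Thus 1 of all 7 of these genes (14.3%) stood higher in every blue list, near the 12.0% of all shared regions. Their differences of mean places, dark minus blue, ran from -5.50 (U2.5) to 200 (U2.10). The median was 83.2 places toward blue light, beside -5.17 over the 78 regions. It was not tested, and the near-identical U2 copies among the 7 are not independent.

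**Figure D5:**
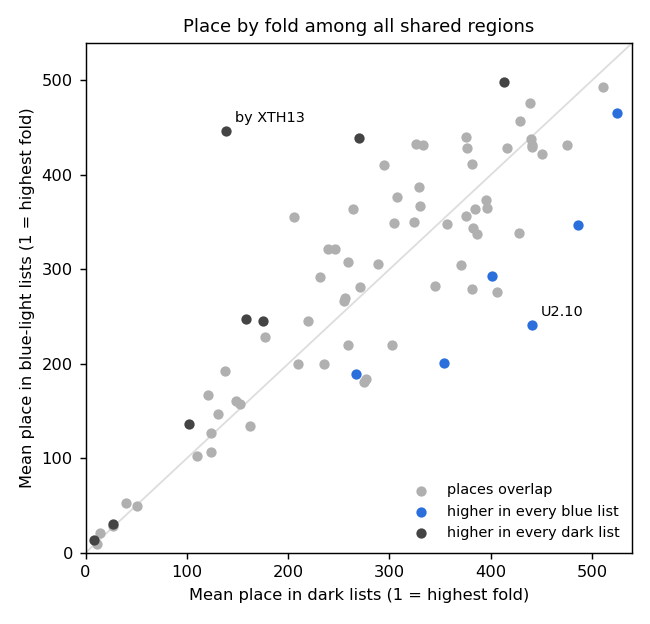
Mean place by fold in the blue-light lists against that in the dark lists for the 78 shared regions outside gene bodies, among 533 shared regions (1 is the highest fold); the line marks equal places. Blue points (6) stood higher in every blue list and dark points (8) in every dark list, with the region by XTH13 and that over U2.10 named.

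Regions of all 3 blue and no dark libraries numbered 43, or 6.42% of those outside gene bodies, against 8.06% of all regions. With 1 summit per region deciding, as above, they numbered 67 of 789, or 8.49%. Folds of the 43 were low. The highest median was 3.78, on chromosome 1 (27150850 to 27151433), 141 bp from PATL1, a gene of membrane traffic at the cell plate, with folds of 3.79, 3.78 and 3.28. A region 1369 bp from the MYB gene HOS10 (chromosome 1, 13076355 to 13076702) had 3.66, 3.43 and 3.94. One 286 bp from SNRK2.3, a kinase gene of abscisic acid signalling (chromosome 5, 26709864 to 26710234), had 2.76, 3.85 and 3.52. The median fold of all regions outside gene bodies was 2.87, 2.79 and 2.84 in the 3 blue lists, so the SNRK2.3 region lay below it in blue replicate 1. Regions farther from genes included those 2645 bp from the auxin-responsive gene SAUR26, 2753 bp from the floral regulator gene AP2 and 3182 bp from ERF8, with median folds of 3.44, 3.43 and 3.30. EIN3, the central transcription factor of the ethylene response, had a region 61 bp away (chromosome 3, 7260212 to 7260516) with folds of 3.19, 3.48 and 3.34. JAZ6, a repressor of jasmonate signalling, had one at 239 bp within the lncRNA AT1G09307, and FRS8, of the FAR1-related family, one at 21 bp, with medians of 3.16 and 3.14. The last of the 10 lay 40 bp from AT1G56090 (3.34). With 1 blue library left out, a region needed a peak in only the other two, and the count was 85 without blue replicate 1 and 66 without blue replicate 2.

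Those with a peak in every dark library and in none of the blue numbered 14, or 2.09%, against 3.57% of all regions. With 1 summit per region deciding they numbered 16 of 789, or 2.03%. Of these 14, 7 lay more than 1 kb from any protein-coding gene, compared with 11 of the 43 blue regions, a difference that was not tested. RR3, a type-A response regulator gene of cytokinin signalling, stood 1244 bp from a region on chromosome 2 (17220195 to 17220755) with folds of 4.03, 3.96 and 4.37. The region between the cation exchanger genes CHX6B and CHX6A (chromosome 1, 2551653 to 2551996) had 4.89, 3.72 and 3.76. DREB1A, the cold regulator also called CBF3, had a region 107 bp away over the lncRNA AT4G07385 (chromosome 4, 13017740 to 13018109), with 4.11, 2.93 and 3.76. By the definition of the 14, no blue list had a peak at any of these 3. Regions 1236 bp from AT4G01245, 227 bp from the membrane protein gene TOM2A and 2302 bp from MYB7 had median folds of 3.72, 3.60 and 3.45. Those 2176 bp from AT4G04750 and over the lncRNA AT2G44798 had 3.59 and 3.96. The region by AT4G01245 had WRKY22 on its other side, 2106 bp away. The widest region of all, 1653 bp on chromosome 1 from 29807909, lay over the transcribed pseudogene AT1G79245 with folds of 2.47, 2.93 and 2.54. The count was 23 of 642 without dark replicate 1 and 23 of 649 without dark replicate 2, when the shares over all regions were 4.85% and 5.23%.

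Some regions combined a low fold with a high −log10 q. Under the caller's Poisson test this goes with many fragments at the summit and a high local background. A fold under 5 with a −log10 q of at least 15 occurred at 19 of the 670 regions (2.84%). These limits were set after the values were seen. Among all other regions it occurred at 128 (5.70%), of which 14 were in no blue library and 1 in no dark library. Most of the 19 had peaks in all 6 libraries, and each of these showed the combination in at least 1 blue list. The others, 6 regions, were in no blue library, and none of the 19 was in blue libraries alone. The region by AT1G20290 (chromosome 1, 7024970 to 7025332) had −log10 q of 41.9, 24.7 and 39.6 at folds of 3.96, 2.97 and 3.97. The region on chromosome 4 from 3655399 to 3655988, 7536 bp from AT4G06598, had −log10 q of 44.9, 51.4 and 28.4 at folds of 4.47, 5.86 and 3.21. The region on chromosome 2 from 19697701 to 19698137, with no protein-coding gene between it and the chromosome end, had 35.6, 21.6 and 15.6 at folds of 2.90, 2.45 and 2.06. All 3 were present in every dark list and absent from every blue list. The other 3 were the region of 2 dark libraries within the pseudogene AT3G33072, 103016 bp from the nearest protein-coding gene, that of 2 dark libraries 32147 bp from AT5G33406, and that of dark replicate 2 at 7812 bp from AT2G09840. These and the region by AT4G06598 were among the 6 regions farthest from any protein-coding gene. The remaining 2 of the 6 farthest were each in 1 library and lay 17877 bp from AT2G11405 and, over the pseudogene AT5G33382, 15095 bp from AT5G33370. Local read depth in the controls, which enters the caller's background, was not analysed here.

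Genes of light signalling stood near these regions in 5 of 46 cases, counted where the gene was the nearest protein-coding gene within 1 kb. Over all 27444 protein-coding genes this held for 539, or 1.96%, and the light-signalling share was 10.9%. The list was chosen with earlier results of these data known, so the share is a description. HFR1, a negative regulator of shade growth, had a region 97 bp away with folds of 2.59, 2.95 and 2.34 in blue light and none in the dark. BBX21, a B-box gene that activates HY5, had one at 137 bp with 3.93, 3.01 and 2.74 in blue light and none in the dark. PIF5, listed as PIL6, a bHLH gene that promotes elongation, had one at 129 bp in 3 blue libraries and in dark replicate 2 (3.01). Over all 670 regions, 379 had a peak in more blue than dark libraries and 162 in more dark than blue ones. BBX28, a B-box gene that restrains HY5, had a region on either side, one of them in all 6 libraries with folds of 2.62 to 3.32 in the dark and 2.53 to 3.12 in blue light. PIF3 had a region of 1 dark and 1 blue library 235 bp away, and a region of all 6 libraries lay 3139 bp away, nearest to AT1G09520.

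The other lists gave few cases. Of 14 circadian clock genes 2 (14.3%) had such a region, GI at 675 bp in 1 dark and 2 blue libraries and ELF4 in 1 blue library. A region of 3 blue and no dark libraries lay between PSI-P and CCA1, 157 and 293 bp from them, and was counted for PSI-P. Of 35 genes of elongation growth, auxin and gibberellin, 2 (5.71%) had one, the DELLA gene GAI in 2 blue libraries (median fold 2.73) and IAA4 in 1 blue library. Of 28 genes of heat, cold, drought and wound response, 2 (7.14%) had one. These were DREB1A above and CBF1, whose region at 584 bp was in 1 dark and 2 blue libraries. None of 7 genes of the MOS4-associated complex had a region outside gene bodies as its nearest within 1 kb. Each list is small, so a share moves by several points with 1 gene.

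Some genes beside these regions carried MAC3A in their bodies too. Of the 539 genes nearest to a region within 1 kb, 95 (17.6%) also had a summit of another region inside the body in at least 1 library, against 7.51% of all protein-coding genes. For regions of all 6 libraries the count was 9 of 65 genes. The difference from all genes was not tested, and a gene with a summit in its body within reach of the same peak as the outside summit would have been left out by the rule. The regions were spread over the chromosomes much as all others, with 27.2% on chromosome 1 for both sets and 14.5% against 13.0% on chromosome 2. At the edge of the rule, the region closest to a tRNA gene among those kept was 1214 bp away with a fold of 2.32 in 1 blue library. The farthest of those left out was 834 bp away with 3.51 in 1 dark library. The 118 regions left out for a tRNA gene had a median fold of 2.99, against 2.88 for the 670, and 2 of them were in all 6 libraries. The summits nearest to a gene body among those kept were 1 bp outside it, in 3 regions.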

How the data were processed

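The submitters' processing notes name the TAIR10 build, MACS2 2.1.1, Bowtie2, ChIPseeker and SAMtools. The sources used here give neither parameters nor which control served which list. The authors deposited 1 peak list per MAC3A library, in which fold enrichment is a ratio over the caller's local background. The deposited −log10 p and −log10 q values belong to each summit within its library, and the deposited score, derived from q, was not used. Gene names and bodies came from a RefSeq table of assembly TAIR10.1 without strand or sequence (37899 genes on chromosomes 1 to 5), of which no coordinates are printed. As a check of that table, 74.3% of summits lay in protein-coding bodies unshifted and 63.0% to 66.4% when shifted by 1000 or 5000 bp. Printed coordinates are those of the peak lists, counted from 1.

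Peaks were merged and classified with Python 3.11.15 and numpy 2.4.6, tested on simulated data. The best summit is that with the highest −log10 q. Eligible sequence is everything outside protein-coding bodies and over 1 kb from tRNA genes, 54.2 of 119 Mb. Dark and blue libraries were set against each other in exact permutation tests (every assignment of 6 to 3 and 3), with Benjamini-Hochberg adjustment over 6 measures. The members, gene lists and tests were chosen with earlier results of these data known. Many regions were named by rule. These were the 10 best-ranked shared regions, up to 10 of each condition alone by median fold, the 6 farthest and the 4 widest. The rule also took up to 4 per RNA or pseudogene class, and those of at least 2 libraries of a condition beside a listed gene. Other regions were named outside this rule, some of them, as stated, after their values were seen. The planned motif and base composition descriptions were not made, since they need sequence. Alternatives comprised stricter fold and q limits, lists of equal length, other merging and membership rules, and each library left out.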

Additional observations from a re-analysis of the deposited data

How the results depend on the processing

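Of 242 comparisons of a result with an alternative, 6 turned the direction of a difference and 32 moved a count by over 1.5 times. The other 204 were counted as keeping a difference's direction, though not always its size, or a count within 1.5 times. Some of these outcomes were fixed in advance, so 204 does not measure how stable the results are. The difference in regions within RNA genes or pseudogenes is 0 by construction when genes of every biotype are left out. A replicate block leaves the means unchanged. Counts in all libraries, or in blue light or the dark alone, cannot change among regions of at least 2 libraries. The number of regions was 306 with −log10 q limited to 5 or more, 382 with fold limited to 3 or more and 369 among regions of at least 2 libraries, an alternative chosen after seeing the data. The excess of blue over dark regions per library was 110, and it was 24.3 at the q limit (exact permutation p = 0.30), 7.67 with lists of equal length (exact permutation p = 0.40) and -44.0 at the fold limit (exact permutation p = 0.10). The difference in share turned there from 2.38 to -1.02 points. Regions of blue light alone numbered 43, and 12, 10 and 18 at the q limit, the fold limit and equal length, and 67 when the best summit of a region decided (chosen after seeing the data). Regions of the dark alone numbered 14, and 9, 19 and 22 at the q limit, the fold limit and equal length. Over all regions the blue and dark shares made the same turn, from 8.06% and 3.57% to 4.53% and 5.00% at equal length and 2.91% and 4.84% at the fold limit. The cause was not tested.

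Leaving out 1 library gave 605 to 655 regions, an excess of 98.8 to 130, a difference in share of 2.06 to 3.05 points, 47 to 85 blue and 16 to 23 dark regions. Those counts rise because fewer libraries must be met. Over all regions the blue shares were then 9.30% to 13.0% and the dark shares 4.09% to 5.23%. The difference in regions within RNA genes or pseudogenes turned to 2.88 at the fold limit and 0.175 at equal length. The difference in median width, 3.33 bp, turned to -4.50 with only tRNA bodies left out and ranged from -0.833 (without blue replicate 2) to 8.17 with 1 library left out. With the replicate number as a block, the exact sign-flip permutation p was 0.25 for the excess of 110 and for the share of 2.38, the smallest that 3 pairs allow. Deviations of same-numbered libraries correlated at -0.0404 to -0.0315, and those of differently numbered ones at -0.0257 to 0.0595. With 3 libraries per condition these values cannot settle whether the numbers pair the libraries. Depth was not known, so a region absent from a list may only have missed its threshold.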

Other observations

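Among the 43 regions of blue light alone, several lay by genes of hormone signalling that were picked after their values were seen. Beside EIN3 above, EBF1, the F-box gene whose product degrades EIN3, had a region 124 bp away with a median fold of 2.11. EFE, an ethylene-forming enzyme gene, had one at 196 bp with 3.05. The DELLA gene RGA (listed as RGA1) had one at 1486 bp over the lncRNA AT2G04015 with 3.00, the abscisic acid receptor gene PYL5 one at 148 bp with 2.75, and ARF2, an auxin response factor gene, one at 427 bp with 2.97. By the choice of regions, none of these had a peak in a dark list, and no enrichment of hormone genes was tested.

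The aquaporin genes PIP2B and RD28 shared a region of 3 blue and no dark libraries, 1286 and 1327 bp from its summit, with a median fold of 2.60. Among the regions of the dark alone, those not described above lay 54 bp from AT3G02880 (median fold 3.36) and 615 bp from ERF9 (3.30).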
